A study of Homo sapiens with 16 samples.

Results

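Neuroendocrine granule and secretion genes were followed through actin depolymerisation in pancreatic progenitors. The set was 45 genes, taken from a list of names and not by a cut on their values, out of 35810 genes in the table, and 44 of the 45 were among the 16705 genes tested. The list was drawn up with earlier results of these data known. Its shares and medians beside those of all genes are therefore descriptions and no independent test. RNA with a poly(A) tail was sequenced from pancreatic progenitors on day 19 of differentiation from SA121, an established human embryonic stem cell line, in a derivative with genotype NGN3-GFP, which every group carries. Latrunculin B (LatB), which depolymerises actin, was given at 0.5 µM for 3 h (n = 3), 6 h (n = 3), 12 h (n = 2) or 24 h (n = 3). Control 24 h (n = 2) received DMSO, the vehicle, and control 0 h (n = 3) is tagged DMSO too, although the series text places its harvest before treatment. All 16 libraries thus came from 1 line. The labels do not say whether replicates were separate cultures, so p-values measure only the spread between these samples, which may be technical.

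Endocrine cells package peptides in dense-core granules, whose granins drive granule formation and whose convertases cut prohormones into active peptides. Vesicular transporters load small molecules into the granule, RAB proteins and priming factors bring it to the plasma membrane, and a complex of SNARE proteins under calcium sensors fuses the membranes. In the developing pancreas, cells that switch on the transcription factor NEUROG3 become endocrine, and mature islet cells couple this machinery to glucose through ATP-sensitive potassium channels and voltage-gated calcium channels.

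Promoters of 32 of the 45 genes were read from RefSeq (GRCh38.p14). The 13 not matched were CHGB, SCG2, PTPRN2, SLC18A1, SLC30A8, SNAP25, SYT7, SYT13, RIMS2, CADPS2, CPLX1, KCNJ11 and ABCC8. The cyclic AMP response element TGACGTCA, which reads alike on both strands, lay within the 250 bases before the start in 4 of the 32 (12.5%), against 555 of 27305 genes (2.03%). These 4 promoters are shown because they hold the element. They belong to a granin, a convertase, a neuropeptide precursor and a monoamine transporter whose levels are described below. Each line gives the 110 bases before the RefSeq start, 5′ to 3′, with the element in capitals. For PCSK1 and SLC18A2 that start differs from the GENCODE one behind the gene positions given below, so that the stretch of PCSK1 lies within its GENCODE span and that of SLC18A2 overlaps it.
CHGA (chr14:92923040-92923149, plus strand): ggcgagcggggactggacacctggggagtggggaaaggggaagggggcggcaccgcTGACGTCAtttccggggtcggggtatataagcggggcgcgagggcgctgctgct
PCSK1 (chr5:96433249-96433358, minus strand): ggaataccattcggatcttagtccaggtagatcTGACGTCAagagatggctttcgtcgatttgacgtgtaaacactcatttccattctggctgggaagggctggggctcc
VGF (chr7:101165570-101165679, minus strand): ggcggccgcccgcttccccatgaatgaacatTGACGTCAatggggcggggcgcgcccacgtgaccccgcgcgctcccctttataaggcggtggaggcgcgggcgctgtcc
SLC18A2 (chr10:117241004-117241113, plus strand): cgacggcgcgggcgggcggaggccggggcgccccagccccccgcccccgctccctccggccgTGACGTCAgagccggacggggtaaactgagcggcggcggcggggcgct
The element began 54 bases before the start in CHGA, 77 in PCSK1, 79 in VGF and 48 in SLC18A2. The box TATAAA, searched on both strands, was in 4 of the 32 (12.5%: CRYBA2, PCSK1, RAB27A and VGF), against 3563 of 27305 genes (13%). A gene was counted if any of its RefSeq entries matched, and the PCSK1 entry shown above did not hold this box. A match is a description of letters and not a site of binding.

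The libraries held 23609727 to 33515398 reads. Progenitor markers were present throughout, with PDX1 at 222 to 395 CPM (reads of a gene scaled to library size) and SOX9 at 297 to 442 CPM. PTF1A, another progenitor marker, was low, at 0.0676 to 0.732 CPM. The second LatB 12 h library stood apart: its correlation with the first was 0.967 across genes, against 0.98 to 0.986 in the other replicate pairs. It was the highest of the 16 libraries for 13 of the 45 genes. It was also the highest for 7 of 8 mesenchyme markers, whose sum was 1103 CPM there and 166 to 436 CPM in the other libraries, and for 4 of 12 neuron markers. Its part in the results at 12 h was not tested. In whole-culture RNA, a change in the number of cells of a type and a change in RNA per cell cannot be told apart.

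At each time of LatB more genes of the set were called higher than lower, as over all genes. The share called at 3 h and 6 h was below that of all genes. At 3 h, 6 genes rose and 3 fell against control 0 h at an adjusted p under 0.05 in edgeR (20.5% of those tested, where 31.6% of all genes were called, 16.8% higher and 14.7% lower). At 6 h, 14 rose and 4 fell (40.9%, against 43.3% of all genes, 22.9% higher and 20.4% lower). At 12 h, 19 rose and 3 fell (50% of the genes tested, against 35.8%, 19.1% higher and 16.8% lower). At 24 h, 15 rose and 5 fell against control 24 h (45.5%, against 40.8%, 21.9% higher and 18.8% lower). Without the second 12 h library 10 rose and 4 fell at 12 h (31.8%, against 30.7% of all genes, 16.1% higher and 14.5% lower). The median log2 fold change of the 44 genes was 0.063 at 3 h, 0.24 at 6 h, 0.55 at 12 h and 0.39 at 24 h, beside 0.0021, -0.010, 0.011 and 0.0081 over all genes. At 12 h it was 0.43 without the second library. At 24 h 19 rose without the first LatB library, in place of 15, where 20.9% of all genes were called higher. Fewer than 15 rose without the second control 24 h library, a fit that leaves 1 control of that time. The share of all genes called higher fell in that fit too. The comparisons at 3, 6 and 12 h share control 0 h, and no vehicle library of those times was used here. Against control 0 h in place of control 24 h, 22 rose and 5 fell at 24 h. In that setting 22.7% of all genes were called higher and 19.8% lower. The counts at 12 h and 24 h given above thus rest on different references.

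Calls of single genes differed in how firmly they stood. Of 80 calls over the 4 LatB comparisons and the difference between 24 h and 3 h, 32 were kept in every refit tried and 48 were lost in at least 1. Among those kept were all the calls of SLC18A1, VAMP2, SNAP25 and SYT13, and those of PCSK2 at 6, 12 and 24 h. With control 24 h in place of control 0 h as the reference, 14 calls were lost. They were those of STX1A and CADPS2 at 3 h, of SCG2, PCSK1, SYT4, SCGN, CADPS2 and CACNA1D at 6 h, and of SCG2, SCG3, PCSK1, CPE, STX1A and RIMS2 at 12 h. In limma on log2(TPM + 1) the calls lost at 24 h were those of CHGB, VGF, RAB3B, RAB3D, RAB27A, RIMS2 and UNC13B. Scaling moved the balance of calls over the whole table: without scaling between libraries the higher share among all calls went from 53.3% to 36.1% at 3 h and from 52.8% to 37.7% at 6 h. The median of all genes moved to -0.102 on the log2 scale at 6 h in that setting, and the set then had 4 genes higher and 6 lower at 3 h, and 11 higher and 5 lower at 6 h.

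**Figure D1:**
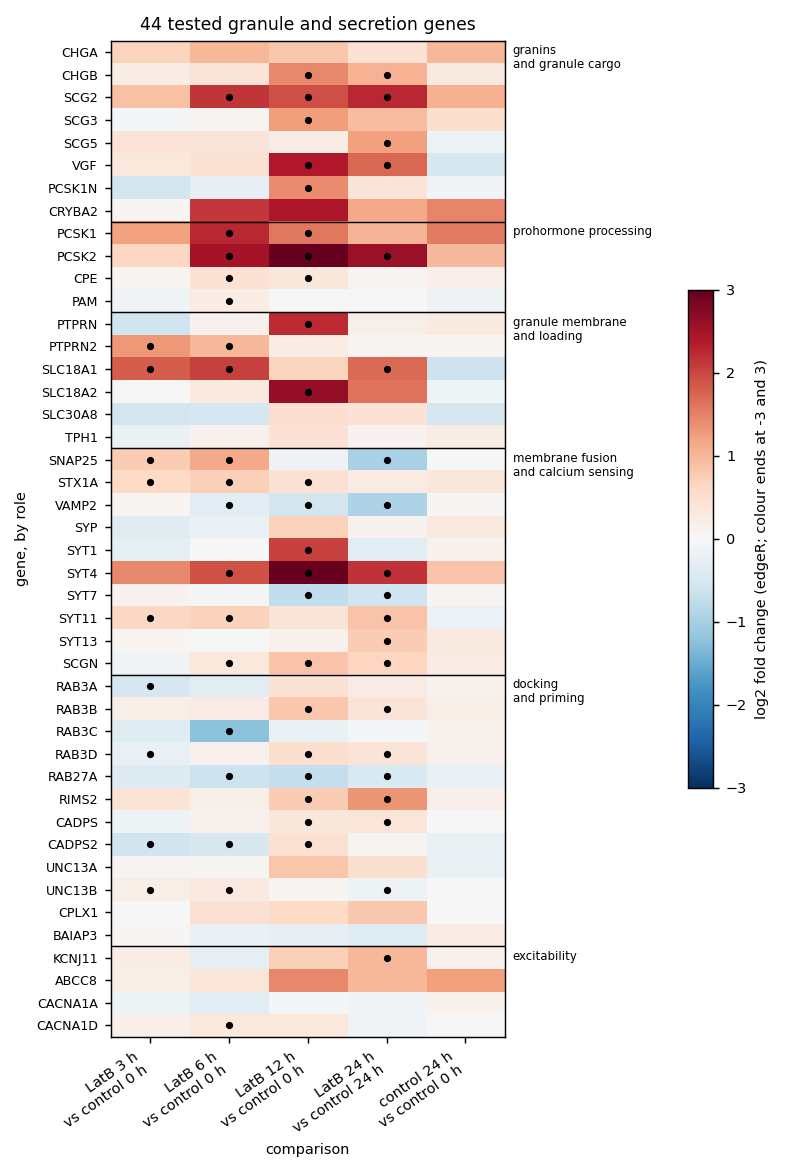
Log2 fold changes from edgeR of the 44 tested genes (rows, by role) in 5 comparisons (columns), with red higher and blue lower in the LatB or later group, and dots for an adjusted p under 0.05. Dots gather in the 6 h, 12 h and 24 h columns and none stands in the column of control 24 h against control 0 h.

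Granin and cargo genes were called higher or not at all. Of the 8, none was called at 3 h, SCG2 alone at 6 h (22.9% of all genes were called higher), 5 at 12 h (19.1%) and 4 at 24 h (21.9%). All 5 calls at 12 h were lost without the second 12 h library. Their median log2 fold change was 1.098 at 24 h and 0.26 at 3 h, and 0 of the 8 passed the test of that difference. SCG2 (secretogranin II, a granin cut into the peptide secretoneurin; chromosome 2, 223596940 to 223602361, GRCh38) was at 0.797, 1.24 and 1.27 CPM in control 0 h and 2.71 and 1.91 CPM in control 24 h. With LatB, SCG2 was at 1.92, 2.63 and 1.602 CPM at 3 h, 4.11, 4.69 and 5.804 at 6 h, 2.54 and 5.89 at 12 h and 4.74, 13.7 and 14.6 at 24 h. Every library of 6 h and 24 h lay above all 5 controls, as did 1 of the pair at 12 h, and the other was within the range of control 24 h. For SCG2 the LatB effect was 2.13 on the log2 scale (SE 0.43, adjusted p 0.00137 in edgeR) at 6 h, 1.94 (SE 0.47, adjusted p 0.00571) at 12 h and 2.25 (SE 0.47, adjusted p 0.00192) at 24 h. The call at 24 h, a 4.77-fold rise, was kept in every refit. That at 6 h was lost against control 24 h, at 1.07 (adjusted p 0.0771), as was that at 12 h, at 0.88 (adjusted p 0.188). The call at 12 h was also lost without LatB 12 h replicate 2 (0.119) and in limma (adjusted p 0.0524). Here and below, libraries named after "without" were left out 1 at a time, with the resulting adjusted p in brackets.

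SCG5, which encodes the 7B2 chaperone that holds PCSK2 inactive until it reaches the granule (chromosome 15, 32641676 to 32697098), was at 4.304, 4.02 and 4.07 CPM in control 0 h and 4.03 and 3.35 CPM in control 24 h. With LatB, SCG5 was at 4.89, 5.63 and 6.03 CPM at 3 h, 5.52, 4.92 and 5.72 at 6 h, 5.64 and 3.96 at 12 h and 5.77, 11.1 and 8.98 at 24 h. All 3 libraries of 24 h lay above both of control 24 h, though the first of them was within the range at 3 h. The difference at 24 h was 1.22 on the log2 scale (SE 0.24, adjusted p 0.00112 in edgeR), kept in every refit, while at 3, 6 and 12 h SCG5 was not called (adjusted p 0.147, 0.1599 and 0.516). The annotation places 51.4% of its exon bases in the readthrough gene ARHGAP11A-SCG5 on the same strand, so reads could be split between them.

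CHGB (chromogranin B) was at 1.83, 2.21 and 1.57 CPM in control 0 h and 2.24 and 2.29 CPM in control 24 h. With LatB, CHGB was at 1.89, 2.13 and 2.52 CPM at 3 h, 2.36, 2.27 and 2.74 at 6 h, 2.67 and 7.47 at 12 h and 4.26, 4.51 and 5.29 at 24 h. The 24 h libraries were all above both controls, and at 12 h the second library was far above the first. The effect on CHGB was 1.05 on the log2 scale (SE 0.32, adjusted p 0.0196 in edgeR) at 24 h and 1.44 (SE 0.31, adjusted p 0.00315) at 12 h. The call at 24 h was lost without control 24 h replicate 1 (0.109), control 24 h replicate 2 (0.0847) and LatB 24 h replicate 3 (0.0572). At 12 h it was lost without LatB 12 h replicate 2 (0.128). VGF, a neuropeptide precursor with the response element shown above, was at 4.98, 3.99 and 5.26 CPM in control 0 h and 3.19 and 3.601 CPM in control 24 h. With LatB, VGF was at 5.59, 3.46 and 8.55 CPM at 3 h, 5.67, 5.79 and 8.001 at 6 h, 7.35 and 42.7 at 12 h and 11.9, 9.88 and 11.6 at 24 h. No library of 24 h overlapped control 24 h, and the second 12 h library was the highest of all 16. The difference for VGF was 1.71 on the log2 scale (SE 0.55, adjusted p 0.0247 in edgeR) at 24 h and 2.41 (SE 0.51, adjusted p 0.00251) at 12 h. The call at 24 h was lost without control 24 h replicate 1 (0.142), control 24 h replicate 2 (0.0945) and LatB 24 h replicate 3 (0.0512). That at 12 h was lost without LatB 12 h replicate 2 (0.2004).

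SCG3, a granin that tethers cargo to the granule membrane, was low, at 0.638, 0.603 and 0.382 CPM in control 0 h and 1.05 and 0.4697 CPM in control 24 h. With LatB, SCG3 was at 0.607, 0.469 and 0.477 CPM at 3 h, 0.571, 0.681 and 0.456 at 6 h, 0.919 and 1.66 at 12 h and 0.989, 1.41 and 1.93 at 24 h. It was called at 12 h alone, by 1.25 on the log2 scale (SE 0.401, adjusted p 0.0269 in edgeR), and that call was lost without control 0 h replicate 2 (0.0542), control 0 h replicate 3 (0.0903) and LatB 12 h replicate 2 (0.284). PCSK1N, which encodes proSAAS, an inhibitor of PCSK1, was at 18.1, 16.8 and 17.3 CPM in control 0 h and 14.2 and 18.7 CPM in control 24 h. With LatB, PCSK1N was at 12.1, 13.6 and 9.64 CPM at 3 h, 16.4, 14.2 and 13.3 at 6 h, 18.5 and 73.7 at 12 h and 31.7, 14.5 and 18.5 at 24 h. One library of 12 h and one of 24 h exceeded the rest, and the LatB 3 h libraries lay below control 0 h. PCSK1N was called at 12 h, 1.41 on the log2 scale (SE 0.42, adjusted p 0.0178 in edgeR), and with the second 12 h library left out the value was 0.085 (adjusted p 0.879). It was also lost without control 0 h replicate 2 (adjusted p 0.0548).

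CHGA (chromogranin A) was called in no comparison, and was chosen for description after its values were seen. It was at 27.1, 25.1 and 31.05 CPM in control 0 h and 60.9 and 50.4 CPM in control 24 h. With LatB, CHGA was at 32.3, 45.5 and 55.3 CPM at 3 h, 50.8, 49.8 and 64.8 at 6 h, 34.2 and 63.1 at 12 h and 26.2, 102 and 96.9 at 24 h. Control 24 h already lay above control 0 h, and of the 24 h LatB libraries the first was at the level of control 0 h while the others were the highest of all 16. The effect at 24 h was 0.43 on the log2 scale (SE 0.43, adjusted p 0.449 in edgeR), and without the first 24 h library it was 0.84 (adjusted p 0.0242). That library was also the lowest of its group for SCG2, PCSK1 and the endocrine factors, whose sum was 170.1 CPM in it and 301 and 276 CPM in the others. Of the 5 liver markers, ALB and AFP were at 6.28 and 79.5 CPM in that library, their highest values, while APOA1, TTR and FGB were highest elsewhere. The sum of the 5 was 1575 CPM in it, against 1106 and 1223 CPM in the other LatB 24 h libraries. In control 24 h that sum was 1597 and 1618 CPM. The part of this library's differences was not tested. CRYBA2, a crystallin gene found in islet endocrine cells, had 0 to 27 reads per library and was not called, with an adjusted p of 0.0609 at 6 h and 0.05099 at 12 h.

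**Figure D2:**
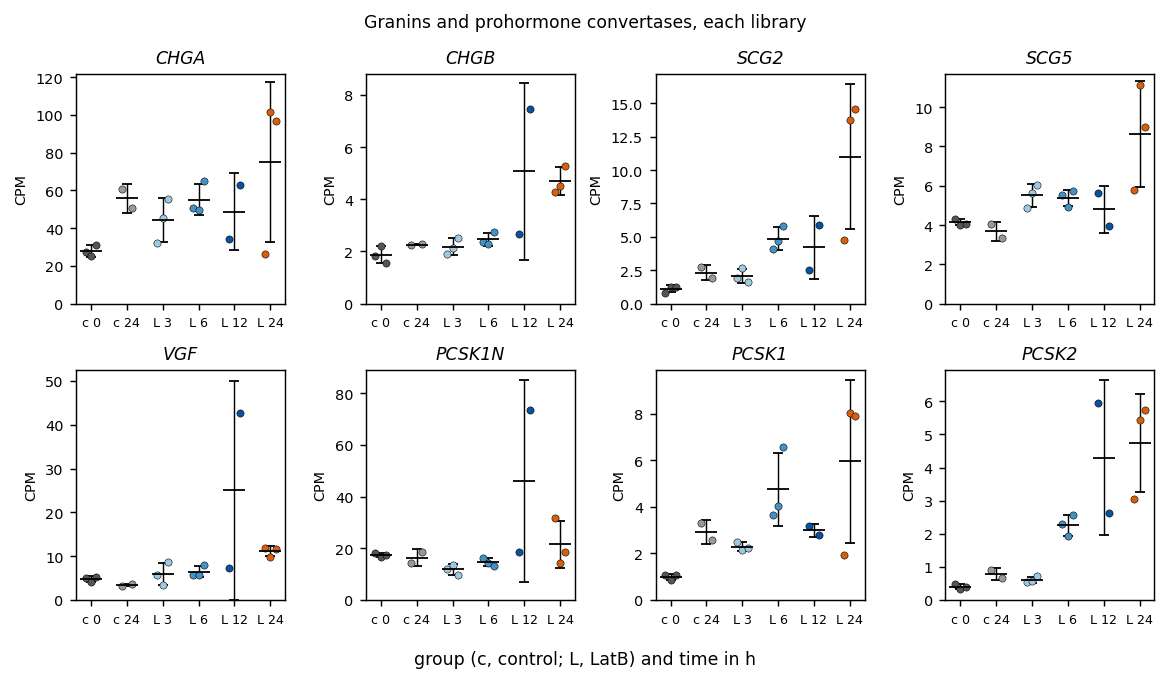
CPM in every library (points) for 6 granin or cargo genes and the convertases PCSK1 and PCSK2, with group mean (line) and SD (bars, ending at the axis where they would pass 0), for control (c) and LatB (L) at each time in h. SCG2 and PCSK2 sit higher in all LatB libraries of 6 h to 24 h than in control 0 h, and the second 12 h library stands alone for VGF and PCSK1N.

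All 4 prohormone processing genes were called higher at 6 h (against 22.9% of all genes), 3 at 12 h (19.1%) and PCSK2 alone at 24 h (21.9%). PCSK2 (proprotein convertase 2; chromosome 20, 17226107 to 17484578) was at 0.478, 0.335 and 0.382 CPM in control 0 h and 0.915 and 0.658 CPM in control 24 h. With LatB, PCSK2 was at 0.544, 0.577 and 0.716 CPM at 3 h, 2.28, 1.93 and 2.57 at 6 h, 5.95 and 2.64 at 12 h and 3.04, 5.43 and 5.75 at 24 h. All LatB libraries of 6, 12 and 24 h lay above all controls. The differences were 2.497 on the log2 scale (SE 0.36, adjusted p 9.41e-05 in edgeR) at 6 h, 3.41 (SE 0.37, adjusted p 1.78e-05) at 12 h and 2.59 (SE 0.38, adjusted p 0.0001595) at 24 h, and the 6.02-fold rise at 24 h was kept in every refit, as were those at 6 h and 12 h. At 9 to 177 reads per library the gene stayed lowly expressed.

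PCSK1, a convertase of the regulated secretory pathway (chromosome 5, 96390333 to 96434143), was at 1.08, 0.838 and 1.06 CPM in control 0 h and 3.29 and 2.57 CPM in control 24 h. With LatB, PCSK1 was at 2.49, 2.13 and 2.25 CPM at 3 h, 3.65, 4.05 and 6.55 at 6 h, 3.19 and 2.77 at 12 h and 1.91, 8.04 and 7.88 at 24 h. Control 24 h was itself above control 0 h, and the first 24 h LatB library was below both controls of its time while the others were the highest of all 16. PCSK1 was called at 6 h, 2.26 on the log2 scale (SE 0.44, adjusted p 0.000972 in edgeR), and at 12 h, 1.59 (SE 0.48, adjusted p 0.0191), but not at 24 h, 1.02 (SE 0.45, adjusted p 0.0871). Against control 24 h in place of control 0 h the value was 0.697 (adjusted p 0.2404) at 6 h and 0.026 (adjusted p 0.977) at 12 h. The call at 12 h was also lost without control 0 h replicate 2 (0.0671) and LatB 12 h replicate 1 (0.0674), and without the first 24 h library the 24 h value was 1.44 (adjusted p 0.000829).

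CPE, the carboxypeptidase that trims basic residues after cleavage (chromosome 4, 165361194 to 165498547), was the most abundant gene of the set by TPM, at 1252, 1190.3 and 1282 CPM in control 0 h and 1316 and 1426 CPM in control 24 h. With LatB, CPE was at 1301, 1353 and 1197 CPM at 3 h, 1706, 1654 and 1699 at 6 h, 1643 and 1479 at 12 h and 1473, 1392 and 1477 at 24 h. The 3 libraries of 6 h lay above every control, and those of 24 h lay among or just above control 24 h. The rise was small, 0.44 on the log2 scale (SE 0.058, adjusted p 4.87e-05 in edgeR) at 6 h and 0.33 (SE 0.064, adjusted p 0.00147) at 12 h, and the value at 24 h was 0.079 (SE 0.065, adjusted p 0.359). Against control 24 h the 12 h value was 0.19 (adjusted p 0.0569). PAM, which amidates peptide ends, was at 258, 240.3 and 261 CPM in control 0 h and 218 and 239.9 CPM in control 24 h. With LatB, PAM was at 229, 231 and 230.4 CPM at 3 h, 288, 299 and 306 at 6 h, 231 and 279 at 12 h and 224, 225 and 233 at 24 h. The 6 h libraries were the highest, and 3 h, 12 h and 24 h overlapped the controls or lay below them. PAM was called at 6 h alone, by 0.23 on the log2 scale (SE 0.062, adjusted p 0.00788 in edgeR), which was lost without control 0 h replicate 2 (0.0594) and LatB 6 h replicate 3 (0.0507) and without scaling (adjusted p 0.118).

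Granule membrane and loading genes held the largest rise at 3 h among the genes of the set called. SLC18A1 (the vesicular monoamine transporter VMAT1; chromosome 8, 20144855 to 20183206) was at 9.25, 8.34 and 7.97 CPM in control 0 h and 5.66 and 5.42 CPM in control 24 h. With LatB, SLC18A1 was at 25.5, 24.7 and 40.4 CPM at 3 h, 28.5, 35.7 and 41.2 at 6 h, 19.8 and 7.68 at 12 h and 12.1, 23.2 and 18.3 at 24 h. Every LatB library of 3, 6 and 24 h lay above all 5 controls, and at 12 h 1 library was above them while the other lay between control 24 h and control 0 h. The differences were 1.83 on the log2 scale (SE 0.32, adjusted p 0.000653 in edgeR) at 3 h, a 3.54-fold rise, 2.04 (SE 0.32, adjusted p 0.000185) at 6 h and 1.69 (SE 0.37, adjusted p 0.00288) at 24 h. All were kept in every refit. At 12 h the value was 0.67 (SE 0.36, adjusted p 0.1604), and without the second 12 h library 1.21 (adjusted p 0.01296). The enterochromaffin list, which holds SLC18A1 itself, summed to 21.01 to 22.7 CPM in control 0 h, 55.2 to 70.5 CPM at 6 h and 35 to 61.7 CPM at 24 h. In that list TPH1, which catalyses the first step of serotonin synthesis and belongs to the set, was at 1.41 to 2.39 CPM and was not called.

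PTPRN2 (phogrin, a phosphatase-like protein of the granule membrane) was at 1.83, 1.17 and 1.36 CPM in control 0 h and 1.73 and 1.32 CPM in control 24 h. With LatB, PTPRN2 was at 2.62, 3.46 and 4.74 CPM at 3 h, 2.28, 2.88 and 3.61 at 6 h, 1.57 and 1.79 at 12 h and 0.955, 1.995 and 1.86 at 24 h. The 3 h and 6 h libraries lay above control 0 h, and those of 12 h and 24 h overlapped the controls. PTPRN2 rose by 1.31 on the log2 scale (SE 0.303, adjusted p 0.00479 in edgeR) at 3 h, kept in every refit, and by 1.01 (SE 0.305, adjusted p 0.0165) at 6 h, lost without control 0 h replicate 2 (0.0764), control 0 h replicate 3 (0.0537) and LatB 6 h replicate 3 (0.0785). Its relative PTPRN was at 0.757, 0.905 and 1.44 CPM in control 0 h and 1.15 and 1.38 CPM in control 24 h. With LatB, PTPRN was at 0.767, 0.614 and 0.647 CPM at 3 h, 1.41, 1.02 and 0.953 at 6 h, 1.4 and 8.35 at 12 h and 1.604, 1.07 and 1.596 at 24 h. SLC18A2, the transporter VMAT2, was at 0.917, 0.503 and 0.509 CPM in control 0 h and 0.542 and 0.626 CPM in control 24 h. With LatB, SLC18A2 was at 0.544, 0.8301 and 0.545 CPM at 3 h, 1.03, 0.416 and 0.912 at 6 h, 0.787 and 7.17 at 12 h and 1.84, 1.75 and 1.83 at 24 h. Both were highest in the second 12 h library, by 5.97 and 9.11 times the first, and the group at 12 h overlapped control 0 h. At 12 h PTPRN was called at 2.25 on the log2 scale (SE 0.52, adjusted p 0.00433 in edgeR), and was at 0.44 (adjusted p 0.428) without that library. SLC18A2 was called at 2.64 on the log2 scale (SE 0.63, adjusted p 0.00549 in edgeR), and was at 0.29 (adjusted p 0.699) without it. For SLC18A2, 56.4% of the exon bases lie antisense to PDZD8 and SLC18A2-AS1, and the sources do not state whether counting used strand. At 24 h all libraries of SLC18A2 lay above both controls, with 1.62 on the log2 scale (SE 0.68, adjusted p 0.0729 in edgeR). SLC30A8, the zinc transporter of insulin granules, had 6 to 18 reads per library and was not called.

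Genes of membrane fusion and calcium sensing were called in both directions, with 4 of 10 higher and 3 lower at 24 h (against 21.9% and 18.8% of all genes). SNAP25, a SNARE of the plasma membrane (chromosome 20, 10172395 to 10308258), was at 16.6, 19.8 and 20.8 CPM in control 0 h and 20.03 and 17.8 CPM in control 24 h. With LatB, SNAP25 was at 35.04, 29.4 and 31.9 CPM at 3 h, 44.1, 42.98 and 38.7 at 6 h, 20.8 and 13.97 at 12 h and 11.4, 7.796 and 9.78 at 24 h. The 3 h and 6 h libraries lay above all controls, 12 h overlapped control 0 h, and the 3 libraries of 24 h were the lowest of all 16. SNAP25 rose by 0.75 on the log2 scale (SE 0.15, adjusted p 0.00168 in edgeR) at 3 h and 1.14 (SE 0.15, adjusted p 4.72e-05) at 6 h, had -0.14 (SE 0.17, adjusted p 0.557) at 12 h, and at 24 h was at -0.97 (SE 0.17, adjusted p 0.000571) and so lower. The change of sign between 3 h and 24 h passed its own test, at -1.72 on the log2 scale (SE 0.23, adjusted p 0.000154 in edgeR), and all 4 calls were kept in every refit.

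VAMP2, the SNARE of the vesicle (chromosome 17, 8159149 to 8163546), was at 53.2, 60.7 and 53.5 CPM in control 0 h and 60.8 and 53.8 CPM in control 24 h. With LatB, VAMP2 was at 58.6, 57.4 and 60.04 CPM at 3 h, 44.96, 44.95 and 42.04 at 6 h, 41.4 and 34.6 at 12 h and 30.1, 31.8 and 28.6 at 24 h. The 3 h libraries were among the controls, and each later LatB library lay below every control. VAMP2 fell, with -0.34 on the log2 scale (SE 0.075, adjusted p 0.00218 in edgeR) at 6 h, -0.56 (SE 0.085, adjusted p 0.000245) at 12 h and -0.93 (SE 0.083, adjusted p 4.09e-06) at 24 h, kept in every refit, and 11.9% of its exon bases are shared with another gene on the same strand. STX1A, the partner of SNAP25 in the plasma membrane, was at 10.1, 13.2 and 12.3 CPM in control 0 h and 16.7 and 13.6 CPM in control 24 h. With LatB, STX1A was at 20.6, 16.5 and 17.1 CPM at 3 h, 19.6, 18.5 and 20.5 at 6 h, 16.2 and 16.4 at 12 h and 19.3, 17.4 and 17.3 at 24 h. All LatB libraries lay above control 0 h, and those of 24 h were above control 24 h by a narrow margin. STX1A rose by 0.60 on the log2 scale (SE 0.11, adjusted p 0.00125 in edgeR) at 3 h, 0.71 (SE 0.11, adjusted p 0.000231) at 6 h and 0.45 (SE 0.13, adjusted p 0.0137) at 12 h, and the 24 h value was 0.25 (SE 0.13, adjusted p 0.136). Against control 24 h the value was 0.25 (adjusted p 0.149) at 3 h and 0.103 (adjusted p 0.603) at 12 h, and the 12 h call was lost without LatB 12 h replicate 2 (0.0555). SYP, the vesicle protein synaptophysin, was at 2.18 to 9.37 CPM and was not called.

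Among the synaptotagmins of the set, SYT4 had the largest rise at 24 h and SYT7 fell. SYT4, a synaptotagmin of dense-core vesicles, was at 1.04, 0.737 and 1.06 CPM in control 0 h and 1.63 and 1.75 CPM in control 24 h. With LatB, SYT4 was at 2.49, 2.49 and 2.62 CPM at 3 h, 2.63, 3.78 and 4.23 at 6 h, 2.97 and 26.4 at 12 h and 7.81, 5.86 and 9.01 at 24 h. All LatB libraries lay above all controls, and the second 12 h library was 8.87 times the first. The effect was 1.91 on the log2 scale (SE 0.58, adjusted p 0.01699 in edgeR) at 6 h, 3.97 (SE 0.61, adjusted p 0.000267) at 12 h and 2.16 (SE 0.62, adjusted p 0.0139) at 24 h. Without the second 12 h library SYT4 was still called at 12 h, at 1.66 (adjusted p 0.00101). The call at 6 h was lost without control 0 h replicate 2 (0.0693) and LatB 6 h replicate 3 (0.0536), and against control 24 h, 1.07 (adjusted p 0.188). The call at 24 h was lost without control 24 h replicate 1 (0.0967) and control 24 h replicate 2 (0.0716). SYT7, a calcium sensor of slow release, was at 32.3, 30.5 and 30.2 CPM in control 0 h and 32.5 and 32.6 CPM in control 24 h. With LatB, SYT7 was at 32.9, 34.5 and 32.8 CPM at 3 h, 32.2, 29.9 and 28.1 at 6 h, 23.8 and 13.8 at 12 h and 18.01, 23.2 and 23.1 at 24 h, and the libraries of 12 h and 24 h lay below all others. SYT7 fell, with -0.73 on the log2 scale (SE 0.17, adjusted p 0.00447 in edgeR) at 12 h and -0.601 (SE 0.16, adjusted p 0.00896) at 24 h, the latter lost without control 24 h replicate 1 (0.0533).

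SYT13, an atypical synaptotagmin (chromosome 11, 45240302 to 45286341), was at 25.1, 22.7 and 22.9 CPM in control 0 h and 27.05 and 30.3 CPM in control 24 h. With LatB, SYT13 was at 24.8, 27.1 and 21.5 CPM at 3 h, 22.5, 24.2 and 24.6 at 6 h, 25.4 and 26.2 at 12 h and 39.95, 56.05 and 50.98 at 24 h. Only the 24 h LatB group stood out, with each of its libraries above the other 13. The difference there was 0.77 on the log2 scale (SE 0.13, adjusted p 0.000334 in edgeR), kept in every refit. SYT11 was at 5.26, 5.697 and 6.66 CPM in control 0 h and 5.49 and 4.82 CPM in control 24 h. With LatB, SYT11 was at 7.26, 8.698 and 11.1 CPM at 3 h, 8.87, 9.42 and 10.3 at 6 h, 8.36 and 7.04 at 12 h and 6.04, 11.97 and 10.04 at 24 h, and LatB libraries of 3, 6, 12 and 24 h lay above their controls. SYT11 rose by 0.62 on the log2 scale (SE 0.22, adjusted p 0.0433 in edgeR) at 3 h, 0.70 (SE 0.22, adjusted p 0.0187) at 6 h and 0.86 (SE 0.25, adjusted p 0.0133) at 24 h. The call at 3 h was lost without control 0 h replicate 1 (0.126), control 0 h replicate 2 (0.122), control 0 h replicate 3 (0.0539), LatB 3 h replicate 2 (0.0848) and LatB 3 h replicate 3 (0.205). That at 6 h was lost without control 0 h replicate 1 (0.0645), control 0 h replicate 2 (0.06205) and LatB 6 h replicate 3 (0.0684), and that at 24 h without control 24 h replicate 1 (0.05501), control 24 h replicate 2 (0.0937) and LatB 24 h replicate 2 (0.0517). SYT1, the fast calcium sensor, was at 1.67, 1.54 and 1.74 CPM in control 0 h and 1.73 and 1.82 CPM in control 24 h. With LatB, SYT1 was at 1.28, 1.26 and 1.53 CPM at 3 h, 1.75, 1.82 and 1.37 at 6 h, 1.4 and 12.2 at 12 h and 2.29, 0.921 and 1.06 at 24 h, with the second 12 h library apart from the other 15. Its call at 12 h, 2.05 on the log2 scale (SE 0.59, adjusted p 0.0151 in edgeR), had the other sign without that library, -0.24 (adjusted p 0.721), and was also lost without control 0 h replicate 2 (adjusted p 0.0502).

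SCGN (secretagogin, a calcium-binding protein of islet cells; chromosome 6, 25652201 to 25701783) was at 11, 8.78 and 8.06 CPM in control 0 h and 11.1 and 10.9 CPM in control 24 h. With LatB, SCGN was at 9.05, 8.55 and 8.31 CPM at 3 h, 12.3, 11.5 and 10.9 at 6 h, 18.2 and 15.4 at 12 h and 17.7, 16.5 and 17.4 at 24 h. Libraries of 12 h and 24 h lay above all others, while those of 3 h and 6 h overlapped the controls. SCGN rose by 0.86 on the log2 scale (SE 0.12, adjusted p 9.38e-05 in edgeR) at 12 h and 0.64 (SE 0.12, adjusted p 0.000751) at 24 h, both kept in every refit, and by 0.32 (SE 0.11, adjusted p 0.0259) at 6 h. The call at 6 h was lost without control 0 h replicate 2 (0.116), control 0 h replicate 3 (0.116), LatB 6 h replicate 1 (0.119) and LatB 6 h replicate 2 (0.0713), and against control 24 h, at 0.074 (adjusted p 0.652). Its exons share 60.5% of their bases with an unnamed gene on the same strand (ENSG00000290217), so part of its reads may be assigned there.

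**Figure D3:**
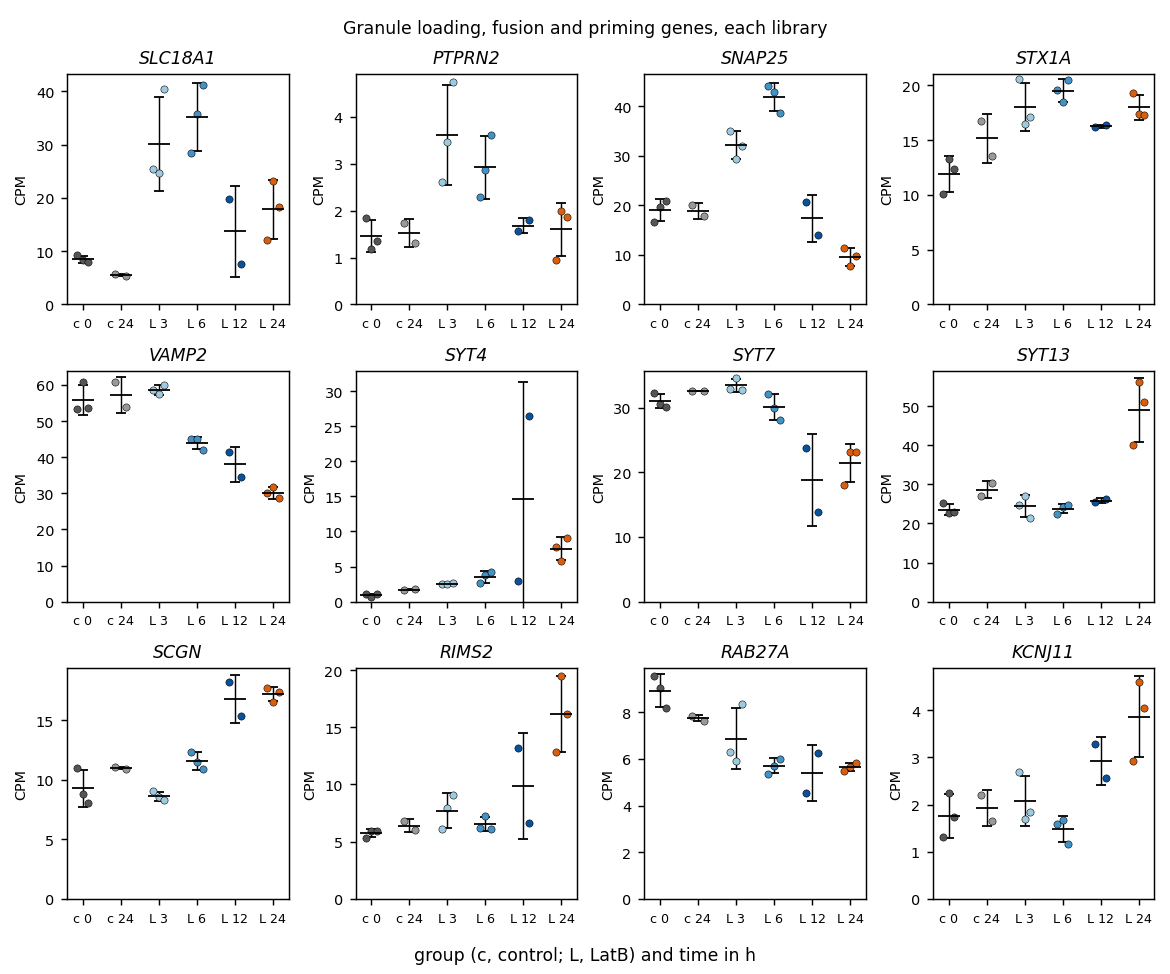
CPM in every library (points) for 12 granule loading, fusion, priming and channel genes, with group mean (line) and SD (bars, ending at the axis where they would pass 0), for control (c) and LatB (L) at each time in h. SNAP25 is high at 3 h and 6 h and lowest at 24 h, VAMP2 falls from 6 h on, and SYT13 is high at 24 h alone.

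Of 12 docking and priming genes tested, 4 were higher and 2 lower at 24 h (against 21.9% and 18.8% of all genes). RIMS2, a scaffold that binds RAB3 at release sites (chromosome 8, 103500610 to 104254430), was at 5.34, 5.96 and 5.98 CPM in control 0 h and 6.81 and 6.01 CPM in control 24 h. With LatB, RIMS2 was at 6.07, 7.904 and 9.098 CPM at 3 h, 6.24, 7.23 and 6.14 at 6 h, 13.2 and 6.595 at 12 h and 12.9, 19.5 and 16.2 at 24 h. The 24 h libraries lay above control 24 h without overlap, and the pair at 12 h was split. RIMS2 rose by 1.33 on the log2 scale (SE 0.26, adjusted p 0.00112 in edgeR) at 24 h. The smaller rise at 12 h, 0.77 (SE 0.25, adjusted p 0.0286), was lost without control 0 h replicate 1 (0.0742), control 0 h replicate 2 (0.0621), control 0 h replicate 3 (0.0573) and LatB 12 h replicate 1 (0.563), and against control 24 h, at 0.62 (adjusted p 0.101). In limma the rise at 24 h was not called (adjusted p 0.101). RAB27A, a GTPase that docks granules (chromosome 15, 55202966 to 55319113), was at 9.57, 9.01 and 8.19 CPM in control 0 h and 7.83 and 7.64 CPM in control 24 h. With LatB, RAB27A was at 6.298, 5.92 and 8.35 CPM at 3 h, 5.37, 5.71 and 6.01 at 6 h, 4.55 and 6.26 at 12 h and 5.46, 5.65 and 5.82 at 24 h. From 6 h on every LatB library lay below all controls, and 1 of the 3 at 3 h was within control 0 h. RAB27A fell, with -0.65 on the log2 scale (SE 0.14, adjusted p 0.00221 in edgeR) at 6 h, -0.72 (SE 0.16, adjusted p 0.00356) at 12 h and -0.45 (SE 0.15, adjusted p 0.0307) at 24 h. The last was lost without any 1 of the 5 libraries it compares (adjusted p 0.0564 to 0.138).

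The RAB3 genes, which encode GTPases of secretory vesicles, each had their own course. RAB3B, the most abundant of them by length-scaled level, was 166 to 204 CPM in the controls, 237 to 377 CPM at 12 h and 248 to 279 CPM at 24 h, and rose by 0.799 on the log2 scale (SE 0.14, adjusted p 0.000621 in edgeR) and 0.39 (SE 0.14, adjusted p 0.0395). The call at 24 h was lost without control 24 h replicate 1 (0.197), control 24 h replicate 2 (0.101), LatB 24 h replicate 2 (0.105) and LatB 24 h replicate 3 (0.0685). RAB3D was 19.4 to 22.1 CPM in the controls, 16.3 to 18.5 CPM at 3 h and 27.8 to 30.1 CPM at 24 h, with -0.22 on the log2 scale (SE 0.068, adjusted p 0.0269 in edgeR) at 3 h, 0.51 (SE 0.074, adjusted p 0.000183) at 12 h and 0.39 (SE 0.075, adjusted p 0.00116) at 24 h. Its fall at 3 h was lost without control 0 h replicate 3 (0.0968), LatB 3 h replicate 1 (0.0538) and LatB 3 h replicate 3 (0.0776), and 24.0% of its exon bases lie antisense to other genes. RAB3A, at 3.02 to 3.65 CPM in the controls and 1.91 to 2.62 CPM at 3 h, fell, with -0.51 on the log2 scale (SE 0.15, adjusted p 0.0168 in edgeR) at 3 h, lost without control 0 h replicate 3 (0.0762) and LatB 3 h replicate 3 (0.0648), and 9.24% of its exon bases lie antisense to MPV17L2. RAB3C dipped at 6 h, to 1.94 to 2.86 CPM from 5.16 to 5.77 CPM in control 0 h, with -1.23 on the log2 scale (SE 0.22, adjusted p 0.000612 in edgeR), kept in every refit, and was 5.02 to 6.45 CPM at 24 h.

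Effects on priming factors were small. CADPS, which primes dense-core vesicles, was 43.4 to 45.6 CPM in the controls, 50.3 to 63.4 CPM at 12 h and 51.1 to 62.95 CPM at 24 h, and rose by 0.34 on the log2 scale (SE 0.099, adjusted p 0.0157 in edgeR) and 0.36 (SE 0.10, adjusted p 0.01103). The call was lost at 12 h without LatB 12 h replicate 1 (0.2297) and at 24 h without control 24 h replicate 1 (0.0645) and control 24 h replicate 2 (0.0618). Its relative CADPS2 was 11.3 to 12.7 CPM in control 0 h, 6.92 to 8.66 CPM at 3 h and 16.3 to 16.6 CPM at 12 h. CADPS2 fell, with -0.598 on the log2 scale (SE 0.15, adjusted p 0.00719 in edgeR) at 3 h and -0.47 (SE 0.15, adjusted p 0.0201) at 6 h and was higher by 0.45 (SE 0.16, adjusted p 0.0429) at 12 h. Against control 24 h the value was -0.37 (adjusted p 0.103) at 3 h and -0.24 (adjusted p 0.265) at 6 h. The call at 6 h was lost without control 0 h replicate 1 (0.0598), control 0 h replicate 3 (0.0506) and LatB 6 h replicate 1 (0.0706) and that at 12 h without any 1 of the 5 libraries it compares (adjusted p 0.0599 to 0.132). UNC13B, a Munc13 protein that opens syntaxin for fusion, was 147 to 156 CPM in the controls, 178 to 193 CPM at 6 h and 134 to 143 CPM at 24 h. It rose by 0.17 on the log2 scale (SE 0.041, adjusted p 0.00605 in edgeR) at 3 h and 0.29 (SE 0.041, adjusted p 8.24e-05) at 6 h and fell at 24 h, with -0.14 (SE 0.045, adjusted p 0.0214). The first was lost without scaling (adjusted p 0.1096) and the last without scaling (adjusted p 0.0522) and without control 24 h replicate 1 (0.158) and LatB 24 h replicate 2 (0.0761).

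Several docking genes were low or not called. UNC13A had 6 to 39 reads per library, CPLX1 5 to 21 and CPLX2 0 to 2. CPLX2, a complexin, failed the filter on low counts and was not tested. BAIAP3, a relative of UNC13A, was at 5.42 to 9.18 CPM, with -0.35 on the log2 scale (SE 0.18, adjusted p 0.134 in edgeR) at 24 h.

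Of the excitability genes, KCNJ11 rose at 24 h. KCNJ11, the pore of the ATP-sensitive potassium channel, was 1.32 to 2.25 CPM in the controls and 2.93 to 4.604 CPM at 24 h, with 1.002 on the log2 scale (SE 0.29, adjusted p 0.0145 in edgeR), a call lost without control 24 h replicate 2 (0.123). ABCC8, the regulatory subunit of the same channel, was 0.199 to 0.637 CPM in control 0 h, 0.814 to 1.19 CPM in control 24 h and 0.853 to 2.67 CPM at 24 h, and was not called, with 0.99 (SE 0.502, adjusted p 0.134). Without the first 24 h library its value was 1.35 (adjusted p 0.0284). CACNA1D, an L-type calcium channel, was 5.46 to 5.896 CPM in control 0 h and 6.66 to 7.79 CPM at 6 h. Its call there, 0.32 on the log2 scale (SE 0.12, adjusted p 0.0424 in edgeR), was lost in 13 refits, among them DESeq2 (adjusted p 0.07296), and without any 1 of the 6 libraries it compares (adjusted p 0.0607 to 0.199). Of the exon bases of CACNA1D, 7.29% lie antisense to CHDH. CACNA1A, of the P/Q type, was at 2.19 to 3.97 CPM and was not called.

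The pair of 12 h libraries disagreed for many genes of the set. The second library exceeded the first by 9.11 times for SLC18A2, 8.87 for SYT4, 8.75 for SYT1, 5.97 for PTPRN, 5.81 for VGF and 4.04 for SYP. It was lower for SLC18A1 at 0.388 times, PCSK2 at 0.443 and RIMS2 at 0.501. With this library left out, which leaves 1 library at 12 h and assumes that it varies like the other groups, CHGB, SCG2, SCG3, VGF, PCSK1N, PTPRN, SLC18A2, STX1A, SYT1 and CADPS2 were no longer called higher, while SLC18A1 was, and RAB3C was called lower. The other 12 calls at 12 h held without it. Among the higher, PCSK2 was then at 3.89 (adjusted p 5.36e-06), PCSK1 at 1.69 (adjusted p 0.047), CPE at 0.404 (adjusted p 0.000837), SCGN at 0.97 (adjusted p 0.000145) and CADPS at 0.504 (adjusted p 0.0022). RAB3B was at 0.42 (adjusted p 0.003597) in place of 0.799, RAB3D at 0.41 (adjusted p 0.00278), and RIMS2 at 1.19 (adjusted p 0.00128) in place of 0.77. Of the lower, SYT7 was at -0.38 (adjusted p 0.0326) in place of -0.73, VAMP2 at -0.43 (adjusted p 0.00357) and RAB27A at -0.97 (adjusted p 0.00163). The neuron markers highest in this library were STMN2 at 6.26 CPM, DCX at 166, MAP2 at 17.4 and GAP43 at 0.643 CPM, against at most 4.95, 112, 14.7 and 0.159 CPM in the other 15.

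**Figure D4:**
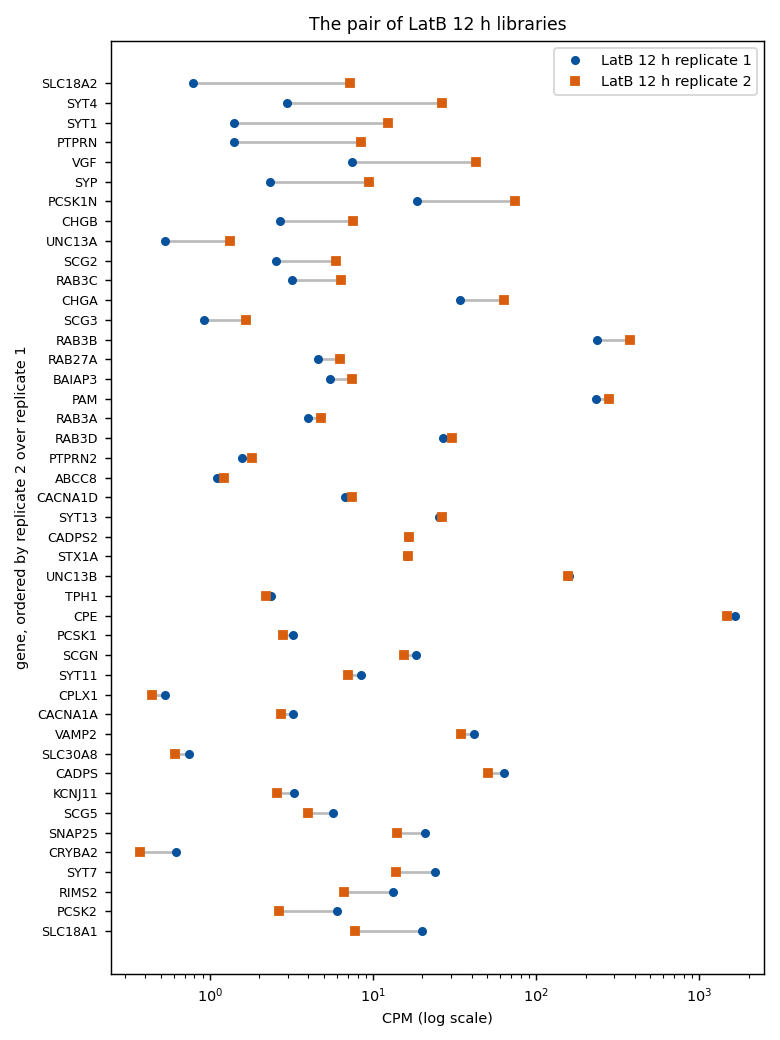
CPM (log scale) of the 44 tested genes in both LatB 12 h libraries, joined by a line and ordered by the ratio of replicate 2 to replicate 1. SLC18A2, SYT4, SYT1, PTPRN and VGF are several times higher in replicate 2, and SLC18A1, PCSK2 and RIMS2 are lower in it.

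No gene of the set passed the threshold between the controls. Between control 24 h and control 0 h, 0 of 44 were called by edgeR (0% against 0.251% of all genes, 0.0299% higher and 0.221% lower), 0 by DESeq2 and 0 by limma, and 8 had an unadjusted p under 0.05, namely CHGA, SCG2, PCSK1, PCSK2, CPE, STX1A, SYT13 and ABCC8. That is 18.2% of the 44, against 1414 of 16705 genes (8.46%). All 8 were higher in control 24 h. They were picked by p in this same comparison, so their lack of overlap is no separate result. The directions of the 1414 genes were not counted. Levels of PCSK1 were 0.838 to 1.08 CPM at 0 h and 2.57 to 3.29 CPM at 24 h, with 1.56 on the log2 scale (SE 0.47, adjusted p 0.246 in edgeR), and those of CHGA 25.1 to 31.05 and 50.4 to 60.9 CPM, with 1.01 (SE 0.43, adjusted p 0.527). A fit of these 5 libraries by themselves called CHGA and PCSK1 higher (4.65% of 43 tested), against 56 of 16000 genes (0.35%).

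Whether the effect of LatB differed between 24 h and 3 h was tested as a difference of effects. It passed for 11 of 44 genes (25%, against 27.9% of all genes, 14.6% higher and 13.4% lower), of which 7 had the higher effect at 24 h and 4 at 3 h. The largest were PCSK2 at 1.97 on the log2 scale (SE 0.53, adjusted p 0.0144 in edgeR), lost without control 24 h replicate 2 (0.0635), and SNAP25 at -1.72 on the log2 scale (SE 0.23, adjusted p 0.000154 in edgeR). Without scaling, the higher share among all genes called went from 52.1% to 69.02%, and the set had 9 and 4. The effect at 3 h was taken against control 0 h and that at 24 h against control 24 h. Drug, vehicle and time thus cannot be told apart in the effect at 3 h.

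Levels per transcript length, as TPM, differed widely within the set. In control 0 h CPE led at 985 ± 27.03 TPM (SD, n = 3), followed by PAM at 159 ± 16.9, VAMP2 at 47.8 ± 2.98 and UNC13B at 35.6 ± 0.775 TPM, each above the next by more than the larger SD of the pair. The lowest was CPLX2, at 0.0124 ± 0.0135 TPM. After UNC13B came CADPS at 22.1 ± 1.76, RAB3B at 21.5 ± 1.56, CHGA at 19.01 ± 2.71 and PCSK1N at 17.6 ± 1.19 TPM, which did not differ from their neighbours beyond that spread. Of the 44 neighbouring pairs in the order, 34 were within the larger SD. Genes under 1 TPM numbered 17 in control 0 h, 14 in control 24 h and 10 in LatB 24 h. SCG2 went from 1.62 ± 0.396 TPM (SD, n = 2) in control 24 h to 7.84 ± 3.88 TPM (SD, n = 3) in LatB 24 h, and VAMP2 from 48.96 ± 5.23 to 25.6 ± 1.48 TPM, so that VAMP2 went from rank 3 to rank 7 in the order.

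**Figure D5:**
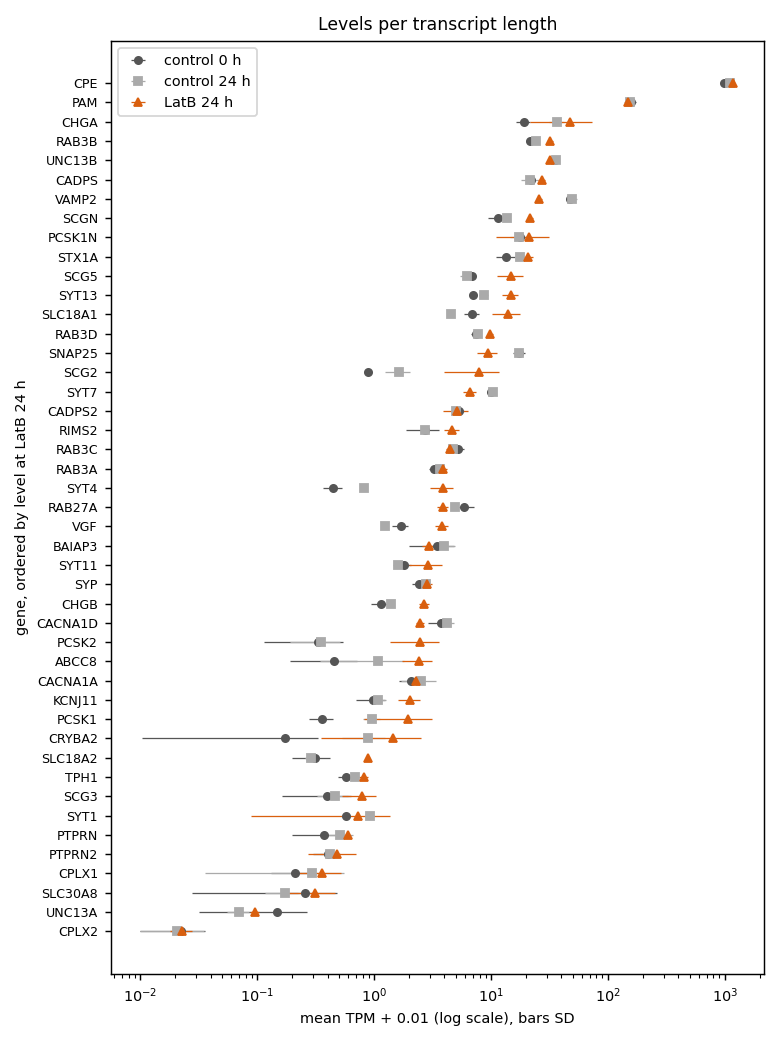
Mean TPM plus 0.01 (log scale) of all 45 genes in control 0 h, control 24 h and LatB 24 h, with SD bars, ordered by the level at LatB 24 h. CPE and PAM lie above the rest in all 3 groups, and SCG2, SYT4 and PCSK2 lie furthest right of control 24 h.

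Other genes of the same pathways, listed by function, did not move one way. Of 53 further exocytosis genes listed, 50 were tested. At 3 h 4 were higher and 3 lower, at 6 h 8 and 10, at 12 h 8 and 6, and at 24 h 11 and 9, with medians of -0.011, -0.11, 0.049 and -0.079 on the log2 scale. Over all genes, 16.8% were called higher and 14.7% lower at 3 h, and 22.9% and 20.4% at 6 h. The shares were 19.1% and 16.8% at 12 h, and 21.9% and 18.8% at 24 h. They stand beside the counts of the lists below too. At 24 h the higher ones included SNAP23, SNAP47, NAPA, SYT3, SYT6, SYT14, SYT16, SV2A, ERC1 and PCLO. SYT6, a synaptotagmin, went from 1.46 and 1.03 CPM in control 24 h to 3.89, 11.9 and 8.31 CPM, 2.69 on the log2 scale (SE 0.699, adjusted p 0.00768 in edgeR). Lower were VAMP8, NAPB, SYTL4, RAB27B, RIMS1, RIMS3, UNC13D, SYNGR1 and SYNGR3. SYNGR1, a synaptogyrin of vesicle membranes, went from 41.9 and 38.4 to 20.98, 22.2 and 20.1 CPM, -0.93 on the log2 scale (SE 0.072, adjusted p 1.40e-06 in edgeR), and RAB27B, the relative of RAB27A, from 139 and 120.4 to 76.01, 52.4 and 60.1 CPM, -1.05 (SE 0.23, adjusted p 0.00276). NSF was not analysed here.

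No processing enzyme outside the set was called higher at 24 h. Of 9 tested, 0 were higher and 6 lower at 24 h (FURIN, PCSK4, PCSK6, PCSK7, CPD and CPM), with a median of -0.53. FURIN, the convertase of the constitutive pathway, went from 85.1 and 89.8 CPM to 59.2, 61.8 and 60.5 CPM, -0.53 on the log2 scale (SE 0.101, adjusted p 0.00105 in edgeR). At 3 h, 2 were higher (CPD and QPCT), at 6 h 1 was higher and 2 lower, and at 12 h 1 was higher and 4 lower. Of 20 other channel and glucose-sensing genes tested, 4 were higher and 3 lower at 24 h, against 2 and 1 at 3 h, 4 and 2 at 6 h, and 5 and 3 at 12 h. GLP1R, the receptor of the incretin GLP-1, went from 74.3 and 63.4 to 11.6, 13.2 and 12.6 CPM, -2.46 on the log2 scale (SE 0.33, adjusted p 8.25e-05 in edgeR). CACNA2D1, CACNA2D2 and SLC2A1 were among the higher, and CACNA1C and SLC2A2 were also lower.

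Hormone and peptide genes were called higher or not at all. Of 27 hormone and peptide genes, 18 were tested, with 1 higher at 3 h (SST), 3 at 6 h, 6 at 12 h and 4 at 24 h. Over all genes 16.8%, 22.9%, 19.1% and 21.9% were called higher at these times. Somatostatin (SST) was 16.9 and 14.3 CPM in control 24 h and 17.1, 80.9 and 68.4 CPM in LatB 24 h, 1.83 on the log2 scale (SE 0.52, adjusted p 0.0133 in edgeR), and PYY was 0.576 and 0.344 and 2.46, 8.78 and 6.35 CPM, 3.67 (SE 0.696, adjusted p 0.00102). PPY and CALCB were the others called at 24 h. INS was 0.127 to 0.335 CPM in control 0 h, 1.19 to 1.49 CPM in control 24 h, 0.831 to 0.879 CPM at 12 h, when it was called against control 0 h, and 0.614 to 3.96 CPM at 24 h, and GCG was at most 1.297 CPM. Of 16 endocrine factors tested, 7 were higher at 24 h (among them NEUROG3, NEUROD1, INSM1, NKX2-2, PAX4 and RFX6), against 4 at 3 h, 8 at 6 h and 8 at 12 h, and 1 was lower at 6 h (RFX3). NEUROG3, which starts endocrine fate, was 2.07 and 2.35 CPM in control 24 h and 25.6, 59.8 and 49.5 CPM in LatB 24 h, 4.34 on the log2 scale (SE 0.42, adjusted p 7.66e-06 in edgeR). INSM1, a factor that drives secretory genes, was 3.39 and 2.97 and 33.98, 81.5 and 74.2 CPM. REST, which represses many genes of regulated secretion, was 103 and 111 CPM in control 24 h and 115, 107 and 109 CPM at 24 h and was called at 6 h alone, 0.28 on the log2 scale (SE 0.046, adjusted p 0.000298 in edgeR). In REST and 6 of its cofactors, 6 of 7 were higher at 24 h, 2 higher and 1 lower at 3 h, 6 higher at 6 h and 5 at 12 h.

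Markers of other cells moved too, and their part in the results was not tested. Of 8 neuron markers tested, 3 were higher at 24 h (TUBB3, NEFL and DCX) and 2 lower (STMN2 and INA), with 1 higher at 3 h, 3 at 6 h and 2 at 12 h. Their sum over 12 genes was 457 to 461 CPM in control 0 h, 411 to 443 CPM in control 24 h, 552 to 590.1 at 3 h, 805 to 885 at 6 h, 653 to 763 at 12 h and 571 to 647 CPM at 24 h, most of it TUBB3. SLC17A6 was at 0 in all libraries, ELAVL3 was at most 0.151 CPM and ELAVL4 at most 0.399 CPM. Of 5 enterochromaffin genes tested, SLC18A1 and DDC were higher at 3 h and 24 h, SLC18A1 and ADRA2A at 6 h, and ADRA2A at 12 h. FEV and LMX1A, transcription factors of that type, reached at most 2.18 and 0.333 CPM. Mesenchyme markers were called 0 times at 6 h and 24 h, once at 3 h (COL1A2) and 3 times at 12 h (COL3A1, TWIST1 and LUM). Liver markers were called higher for 1 gene at 3 h and 6 h (FGB), 3 at 12 h (APOA1, TTR and FGB) and none at 24 h, acinar markers for 2 at 12 h (PRSS1 and CEL) and 1 at 24 h (CELA3A). Among pluripotency markers LIN28A was lower at all 4 times and TDGF1 at 24 h. Progenitor markers were 3 higher and 3 lower of 8 at 24 h, 2 and 2 at 3 h, 2 and 1 at 6 h, and 1 and 2 at 12 h.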

How the data were processed

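RNA of the 16 libraries was sequenced after poly(A) selection. The authors deposited estimated counts per transcript, together with TPM values, which divide by effective length, 1 file per library. The submitters' processing notes name Salmon 1.3.0, DESeq2 and hg38, whereas the methods of the study describe gene counts from another aligner, so which route the tests of the study used was not settled here. A deposited table of the authors' own fold changes and p-values, with 16 per-sample columns, was not used.

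Estimated counts were summed per gene with the GENCODE 44 annotation (165533 of 177456 transcripts matched by identifier, 151923 of them in the same version, and 2.92 to 3.17% of the reads of a library were on unmatched transcripts) and rounded. Totals were 23609727 to 33515398 reads, and intervals from counting were not used. Gene positions are GRCh38. TPM was summed likewise. CPM follow TMM scaling. All 16 libraries and 6 groups entered 1 quasi-likelihood fit in edgeR 4.0.16 (R 4.3.3) after filterByExpr, with Benjamini-Hochberg adjustment over 16705 genes and a call at an adjusted p under 0.05. The 6 comparisons were LatB at 3, 6 and 12 h against control 0 h, LatB 24 h against control 24 h, the later against the earlier control, and the effect at 24 h minus that at 3 h. The edgeR steps were tested on counts simulated from their own model, for LatB 3 h and LatB 24 h against their controls. Only a small part of the genes was changed there, so scaling under changes as wide as these was not tested. The difference of effects and the alternatives were not simulated.

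Alternatives were DESeq2 1.42.0, limma 3.58.1 on log2(TPM + 1), other scaling or none, testing without the filter, a minimum mean of 50 reads, a log2 fold change of at least 1, the other control as reference, only the compared groups, a replicate block, each library left out, and, chosen after seeing the data, the second 12 h library dropped from the shared fit. The 45 genes and all lists were chosen with earlier results of these data known. Genes given in every library were those called in a group comparison with a group mean of at least 1 CPM, by role and then by effect at 24 h, 25 at most. The other genes are given by range. Lists served for any further gene named, and some of their genes are not reported here.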

Additional observations from a re-analysis of the deposited data

Results flagged for a closer look

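The effect of LatB at 24 h differed from that at 3 h, by a test of the difference itself in edgeR, for 11 genes of the set. That is 25% of the 44 tested, against 27.9% of all genes. All values are log2 differences of effects, 24 h minus 3 h, with the adjusted p over all genes, and each rests on 2 libraries of control 24 h and 3 in each other group. The effect at 24 h was taken against control 24 h, and that at 3 h against control 0 h, with no vehicle of 3 h. Drug, vehicle and time therefore cannot be told apart in the effect at 3 h. SNAP25 had -1.72 (adjusted p 0.000154), from effects of 0.75 at 3 h and -0.97 at 24 h. VAMP2 had -0.996 (adjusted p 4.88e-05), from 0.071 at 3 h and -0.93 at 24 h. For both, the 3 libraries of LatB 24 h lay below all controls.

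PCSK2 had 1.97 (adjusted p 0.0144), SYT13 0.72 (0.006498), SCGN 0.75 (0.00355) and CADPS 0.52 (0.0118), each with all 3 libraries of LatB 24 h above all controls. RAB3D had 0.603 (0.000816), RAB3A 0.75 (0.0204) and CADPS2 0.67 (0.0354), all of which fell at 3 h. SYT7 had -0.71 (0.0256) and UNC13B -0.31 (0.00209). The differences of PCSK2, SYT7, RAB3A and CADPS2 were lost when some single libraries were left out: for PCSK2 without control 24 h replicate 2 (0.0635), for SYT7 without control 0 h replicate 3 (0.0526), control 24 h replicate 1 (0.0775), control 24 h replicate 2 (0.0695), LatB 3 h replicate 2 (0.0533) and LatB 24 h replicate 1 (0.0533), for RAB3A without control 0 h replicate 3 (0.0521), control 24 h replicate 1 (0.0629) and control 24 h replicate 2 (0.0652) and for CADPS2 without control 0 h replicate 1 (0.0735), control 0 h replicate 3 (0.0632), control 24 h replicate 1 (0.106), control 24 h replicate 2 (0.0902), LatB 3 h replicate 3 (0.0738) and LatB 24 h replicate 1 (0.05605), adjusted p in brackets. No group of the set's genes had a sample tested for standing apart, since no group held 4 libraries.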

How the results depend on the processing

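Counts of the set's genes called higher and lower were 6 and 3 at 3 h, 14 and 4 at 6 h, 19 and 3 at 12 h, 15 and 5 at 24 h, 0 and 0 between the controls, and 7 and 4 for the difference of 24 h and 3 h. Leaving out 1 library gave 5 to 6 and 1 to 3 at 3 h, 9 to 12 and 3 to 4 at 6 h, 10 to 17 and 3 to 4 at 12 h, 8 to 19 and 2 to 4 at 24 h, 0 and 0 between the controls, and 4 to 9 and 3 to 5 for the difference. Shifts of over 1.5 times came without control 0 h replicate 3 (1 lower at 3 h), control 0 h replicate 2 or LatB 6 h replicate 3 (9 higher at 6 h each), LatB 12 h replicate 2 (10 higher at 12 h), control 24 h replicate 2 (8 higher at 24 h and 4 for the difference), control 24 h replicate 1 (2 lower at 24 h) and LatB 24 h replicate 2 (3 lower at 24 h). A log2 fold change of at least 1 left 2 and 0 at 3 h, 7 and 1 at 6 h, 11 and 0 at 12 h, 9 and 0 at 24 h, and 1 and 1 for the difference. The share of all genes at that limit was not counted, so whether these counts are unusual is not known. Fitting only the compared groups gave 12 higher at 3 h, 8 at 12 h, 2 between the controls and 11 for the difference. Of all genes tested in those fits, 19.4%, 8.29%, 0.35% and 17.1% were called higher. In the main fit these shares of all genes were 16.8%, 19.1%, 0.0299% and 14.6%. limma on log2(TPM + 1) gave 8 higher at 6 h and 12 at 12 h, control 24 h as reference 9 higher at 6 h, and no scaling 6 lower at 3 h. Over all genes, limma called 11.5% higher at 6 h and 12.2% at 12 h. With control 24 h as reference 22.4% of all genes were higher at 6 h, and without scaling 20.4% were lower at 3 h. Dropping the second LatB 12 h library from the shared fit gave 5 lower at 3 h and 12 higher for the difference. The causes of these shifts were not tested, apart from the stricter limit, which by construction calls fewer genes.

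Signs turned for SYT1 at 12 h, from 2.05 to -0.24 without LatB 12 h replicate 2 (2.89 without replicate 1), and for CACNA1D at 6 h, from 0.32 to -0.030 in limma on log2(TPM + 1).

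Replicate numbers showed no clear pairing: over 36 pairs of same-numbered libraries the correlation of deviations was -0.241 to 0.116, above 0.1 in 2. Deviations from the mean of 2 or 3 libraries mirror each other. These values are therefore not independent and cannot exclude a shared origin of same-numbered libraries. With the replicate block the counts were 6 and 3 at 3 h, 14 and 4 at 6 h, 16 and 3 at 12 h, 15 and 5 at 24 h, 0 and 0 between the controls, and 6 and 5 for the difference. The block ended the calls of SCG3, PCSK1N and CADPS2 at 12 h, CACNA1D at 6 h and CADPS2 in the difference.

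Groups of 2 or 3 libraries and the low reads of CRYBA2, PCSK2, SLC30A8, UNC13A, CPLX1 and CPLX2 limit precision, with reads per library of 0 to 27 for CRYBA2 and 0 to 2 for CPLX2. Only PCSK2 of these was called, with an effect at 24 h of 2.59. Other genes under 1 TPM in control 0 h were called too, among them SCG3 (0.389 TPM) and SLC18A2 (0.3 TPM) at 12 h.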
